A study of Mus musculus with 6 samples.

Results

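The mitochondrial carrier family is the group of membrane proteins that move metabolites across the inner mitochondrial membrane, together with a few relatives placed elsewhere in the cell. Its genes were taken as those whose symbol begins with Slc25a and a number, with the uncoupling protein genes Ucp1 to Ucp3, the pyruvate carrier genes Mpc1 and Mpc2, and Mtch1 and Mtch2, wherever a probe set of the array names that gene alone. This gave 51 genes on 56 probe sets, out of 19938 genes on 21789 probe sets. The rule used gene symbols and no measured value, but the family was chosen with earlier results of these data known. Mpc2 and Ucp2 were not analysed here.

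RNA came from MC3T3-E1, an established line of mouse osteoblast precursors that the labels trace to newborn C57BL/6 calvaria, the bone of the skull vault. The differentiated group (3 arrays) held cells induced from confluence for 14 days in DMEM with 10% serum, sodium pyruvate at 1 mM, dexamethasone at 0.1 µM, ascorbic acid-2-phosphate at 0.2 mM and β-glycerophosphate at 10 mM. The undifferentiated group (3 arrays) held cells of the same line maintained with 10% serum in α-MEM that lacked ascorbic acid. Medium, time at confluence and the added compounds differ together, so their contributions cannot be told apart. Both groups are cultures of a single line, the series calls its replicates independent without saying what separated them, and the p-values below measure the spread between these arrays, which may be technical. In RNA from whole cultures, fewer cells with a transcript and less of it per cell cannot be told apart either.

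The inner mitochondrial membrane is impermeable to most charged molecules, and carriers of this family exchange or co-transport them one kind at a time. They bring ADP and phosphate in for ATP synthesis, and carry pyruvate, amino acids, acylcarnitines, iron and cofactors to the enzymes of the matrix. Others pass citrate out to the cytosol or take part in shuttles that move reducing equivalents across the membrane. Most are encoded in the nucleus as single polypeptides built of a repeated pair of membrane helices, and they reach the inner membrane through the TOM and TIM22 import complexes. Mpc1 and Mpc2 form the pyruvate carrier and are not related to the Slc25 proteins by sequence. Osteoblasts use both glycolysis and mitochondrial oxidation.

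All values below are log2 values that the authors deposited after centring each probe set, so that its median over the 6 arrays is 0. They show differences between arrays and not how strongly a gene was expressed, and whether a carrier was detected at all cannot be read from them. Centring also fixes part of the pattern: where the groups do not overlap, one group lies wholly above 0 and the other wholly below it. Array medians over all genes ran from -0.00410 to 0.0106 in differentiated and from -0.00949 to 0.00506 in undifferentiated arrays. Of 5 osteoblast markers, Dmp1 (3.44), Ibsp (3.12) and Alpl (0.96) rose, and Col1a1 (-0.40) and Sp7 (-0.40) fell, the last of these added after its value was seen. After cyclic loess scaling 1 of these falls was called. All 5 measured proliferation markers fell, with a median of -2.17, and their part in the results on carriers was not tested.

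Carrier genes moved in both directions. Of the 51, 13 rose in differentiated cells, 7 fell and 31 did not pass an adjusted p of 0.05 (limma over all genes, Benjamini-Hochberg). At an unadjusted p under 0.05 there were 26, but that share was not computed over all genes, so nothing is read from this count. The called share was 39.2%, against 35.5% of all genes tested, which is near that background. Rises made up 25.5% of the carriers, against 16.4% of all genes, and falls 13.7%, against 19.1%. The median log2 fold change was 0.02, and that of all genes was also 0.02. The median size of the change, whatever its sign, was 0.15 for carriers and 0.13 for all genes. The arrays of the groups did not overlap for 27 carriers (52.9%, against 46.2% of all genes). Only Slc25a30 passed the threshold with a change of at least 2-fold, 1 of 51 carriers where 4.81% of all genes did so, and its value fell under 2-fold in some of the alternative fits, which gave log2 fold changes of 0.96 to 1.06.

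**Figure D1:**
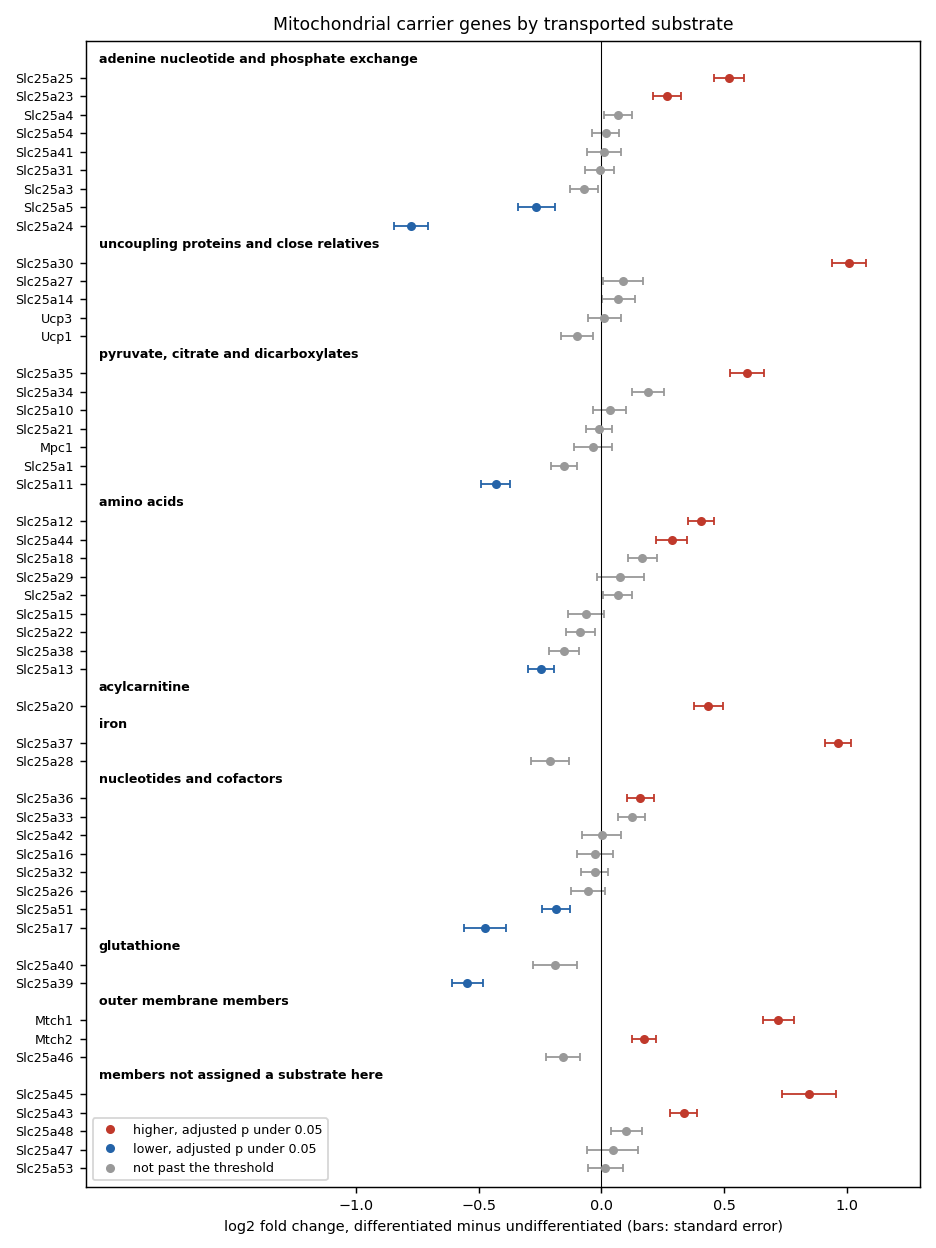
Log2 fold change of each of the 51 carrier genes, differentiated minus undifferentiated (horizontal axis), grouped by what the protein carries. Points are limma estimates, bars their standard errors and colours the call at an adjusted p of 0.05. Slc25a30 lies farthest to the right at 1.01 and Slc25a24 farthest to the left at -0.78, and every group of 5 or more genes but the uncoupling proteins and the members not assigned a substrate here holds both rises and falls.

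The largest rise was in the uncoupling protein subfamily, in Slc25a30, which encodes the kidney mitochondrial carrier protein KMCP1. Centred log2 values of Slc25a30 were 0.60, 0.43 and 0.52 in differentiated arrays, against -0.43, -0.46 and -0.60 in undifferentiated arrays. Every differentiated array lay above every undifferentiated one, and the gene was 2.02-fold higher (log2 fold change 1.01 ± 0.07, SE, 3 arrays per group, adjusted p = 4.79e-06). Its promoter is printed because it belongs to the gene with the largest change of the family. The stretch is the 250 bases before the RefSeq start, chr14:75787038-75787287 of GRCm38.p6 on the minus strand, written 5′ to 3′ along the gene, with motif matches in capitals.
Slc25a30: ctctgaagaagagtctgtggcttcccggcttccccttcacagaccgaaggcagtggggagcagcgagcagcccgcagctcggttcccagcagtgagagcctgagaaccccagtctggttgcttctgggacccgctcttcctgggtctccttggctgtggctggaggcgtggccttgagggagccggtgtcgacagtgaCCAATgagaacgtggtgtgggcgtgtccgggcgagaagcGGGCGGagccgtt
The capitals are a CCAAT box 52 bases and a GC box 13 bases before the start.

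The other members of this subfamily did not pass. Slc25a14, the nearest relative of Slc25a30, was at -0.06, 0.17 and 0.05 in differentiated arrays, against 0.04, -0.04 and -0.05 in undifferentiated arrays. Its groups overlapped, and its change of 0.07 had a 95% interval of -0.09 to 0.22. The relative Slc25a27 was at 0.09 ± 0.08 (adjusted p = 0.482), and Ucp3, the uncoupling protein known from skeletal muscle, at 0.01 ± 0.07 (adjusted p = 0.925). Ucp1, the proton leak of brown fat, was at -0.10 ± 0.07 (adjusted p = 0.301), with values of -0.05, -0.06 and 0.03 in differentiated arrays, against -0.03, 0.06 and 0.18 in undifferentiated arrays. Its differentiated and undifferentiated arrays overlapped. Of 7 brown adipocyte markers, Ucp1 among them, only Dio2 passed (0.28 ± 0.09, adjusted p = 0.0494), and its call was lost without any 1 array but differentiated replicate 2 (adjusted p up to 0.152) and in 3 of the other fits (0.0503 to 0.0519). The median of these markers ranged over arrays from -0.02 to 0.03 in differentiated and from -0.05 to 0.02 in undifferentiated cells. Among general adipocyte markers, Fabp4 (0.46 ± 0.06) and Cebpa (0.22 ± 0.07) of 6 rose, the count being 1 without differentiated replicate 1 or 3 or undifferentiated replicate 2 or 3, while Adipoq (-0.11), Plin1 (0.03), Pparg (0.07) and Lep (-0.07) did not pass. Of 6 macrophage markers Cd68 rose (0.44 ± 0.10), and 2 rose in some fits, those without differentiated replicate 2 or undifferentiated replicate 3 among them. The part of these markers in the results on carriers was not tested.

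Carriers that exchange adenine nucleotides and phosphate held rises and falls of close relatives. The calcium-sensitive ATP-Mg/phosphate carriers, which adjust the adenine nucleotide pool of the matrix, split by gene. Slc25a24 had the largest fall of the family, with values of -0.35, -0.31 and -0.38 in differentiated arrays, against 0.47, 0.53 and 0.31 in undifferentiated arrays. All 3 differentiated arrays lay below all 3 undifferentiated ones, a 1.71-fold lower level (-0.78 ± 0.07, adjusted p = 2.31e-05). Slc25a25, which belongs to the same subfamily, had values of 0.21, 0.22 and 0.36 in differentiated arrays, against -0.28, -0.21 and -0.28 in undifferentiated arrays. It was 1.43-fold higher (0.52 ± 0.06, adjusted p = 1.32e-04), and its groups did not overlap either. Slc25a23, the third of these carriers, was at 0.09, 0.10 and 0.11 in differentiated arrays, against -0.25, -0.15 and -0.09 in undifferentiated arrays. That was a 1.20-fold rise (0.27 ± 0.06, adjusted p = 0.00536), again without overlap. Slc25a41 (0.01 ± 0.07, adjusted p = 0.925) and Slc25a54 (0.02 ± 0.05, adjusted p = 0.860), further relatives, did not pass.

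The promoters of Slc25a24 and Slc25a25 are printed because these related genes moved in opposite directions. That of Slc25a24 is chr3:109122899-109123148 on the plus strand, and that of Slc25a25 is chr2:32424067-32424316 on the minus strand, both from RefSeq on GRCm38.p6. Slc25a25 has 3 promoter windows, and the one shown was picked after its motifs were seen, since it holds a cAMP response element.
Slc25a24: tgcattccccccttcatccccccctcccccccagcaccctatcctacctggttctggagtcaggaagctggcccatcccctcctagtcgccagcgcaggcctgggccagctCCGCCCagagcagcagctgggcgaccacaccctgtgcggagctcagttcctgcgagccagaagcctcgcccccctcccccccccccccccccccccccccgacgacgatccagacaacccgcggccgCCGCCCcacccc
Slc25a25: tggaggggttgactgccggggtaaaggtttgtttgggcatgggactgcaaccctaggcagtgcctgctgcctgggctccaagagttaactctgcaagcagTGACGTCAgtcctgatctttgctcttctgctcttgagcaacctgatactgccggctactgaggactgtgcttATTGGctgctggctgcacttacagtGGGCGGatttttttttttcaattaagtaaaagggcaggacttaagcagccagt
In Slc25a24 the capitals are GC boxes 139 and 12 bases before the start. In Slc25a25 they are a cAMP response element at 150, a CCAAT box at 78 and a GC box at 53 bases before the start.

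The ADP/ATP exchangers and the phosphate carrier supply ATP synthase with its substrates. Slc25a5, the exchanger of proliferating and many other cells, had values of -0.11, -0.04 and -0.18 in differentiated arrays, against 0.14, 0.30 and 0.04 in undifferentiated arrays. It fell 1.20-fold (-0.27 ± 0.08, adjusted p = 0.0227) with no overlap, and its 3 probe sets gave -0.28, -0.27 and -0.25. The call was lost without differentiated replicate 1 (adjusted p = 0.0646), differentiated replicate 3 (0.0852) or undifferentiated replicate 2 (0.0711). RefSeq lists a pseudogene, Slc25a5-ps, so these probe sets may read copies of the gene. Slc25a4, the exchanger of heart and skeletal muscle, was at 0.11, -0.01 and 0.01 in differentiated arrays, against -0.05, 0.02 and -0.07 in undifferentiated arrays. Its arrays overlapped, and the change of 0.07 had a 95% interval of -0.06 to 0.20. The phosphate carrier Slc25a3 was at -0.07 (95% interval -0.20 to 0.06), and the germ cell exchanger Slc25a31 at -0.01 (-0.14 to 0.12). Of 6 skeletal muscle markers and 6 male germ cell markers, Slc25a31 included, 0 passed in limma. At an unadjusted p under 0.05 only Prm2 of the germ cell list was found (0.20), and 1 germ cell marker passed without differentiated replicate 2.

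**Figure D2:**
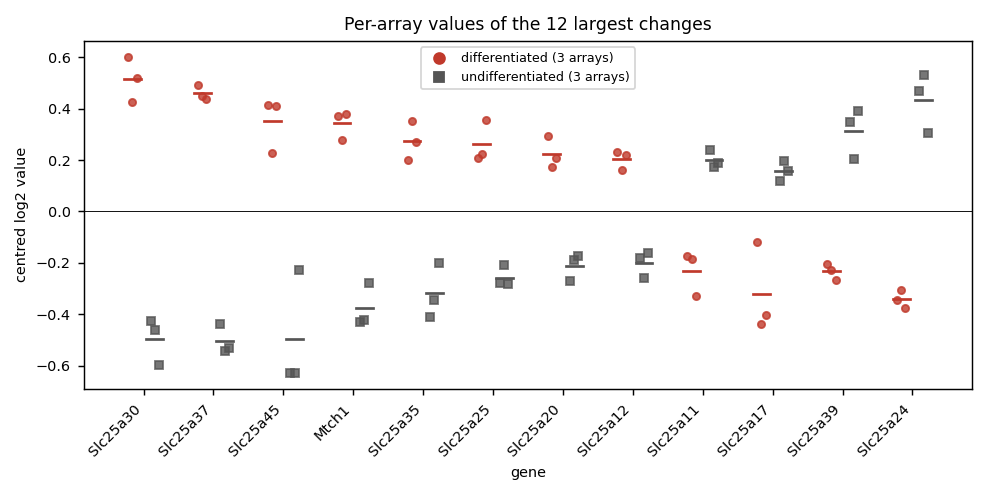
Centred log2 value (vertical axis) on each array for the 12 carriers with the largest called changes, differentiated (circles, left) and undifferentiated (squares, right), with a line at each group mean of 3 arrays. The groups lie on opposite sides of 0 for all 12 genes, from Slc25a30 at 0.43 to 0.60 in differentiated arrays to Slc25a24 at -0.38 to -0.31.

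Among carriers of pyruvate, citrate and dicarboxylates, 1 of 7 rose and 1 fell (28.6% called, against 35.5% of all genes). Slc25a35, a relative of a yeast oxaloacetate carrier, had values of 0.20, 0.35 and 0.27 in differentiated arrays, against -0.41, -0.34 and -0.20 in undifferentiated arrays. It was 1.51-fold higher without overlap (0.59 ± 0.07, adjusted p = 1.55e-04). Its relative Slc25a34 was at 0.19 ± 0.07 and did not pass (adjusted p = 0.0530). The call appeared in the fit with the replicate number as a block (adjusted p = 0.0422), with array weights (0.0351), after cyclic loess scaling (0.0469), and without differentiated replicate 2 (0.0362) or undifferentiated replicate 3 (0.0282). Slc25a11, the oxoglutarate/malate exchanger of the malate-aspartate shuttle, had values of -0.17, -0.19 and -0.33 in differentiated arrays, against 0.24, 0.17 and 0.19 in undifferentiated arrays. It fell 1.35-fold with no overlap (-0.43 ± 0.06, adjusted p = 4.54e-04). The dicarboxylate carrier Slc25a10 was at 0.05, 0.05 and -0.06 in differentiated arrays, against -0.11, 0.09 and -0.05 in undifferentiated arrays. These overlap, and the 95% interval of its change was -0.12 to 0.18.

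Slc25a1, which exports the citrate used for fatty acid synthesis, was at -0.15 ± 0.05 and did not pass (adjusted p = 0.0547), although its groups did not overlap. It passed after quantile (adjusted p = 0.0408), median (0.0461) or cyclic loess scaling (0.0226). Mpc1, a subunit of the pyruvate carrier, was at 0.05, -0.13 and 0.02 in differentiated arrays, against -0.08, 0.15 and -0.02 in undifferentiated arrays. The groups overlapped, and its change of -0.03 had a 95% interval of -0.21 to 0.14. RefSeq lists a pseudogene, Mpc1-ps. Mpc1 is on chromosome 17, but its probe set is numbered among those of carriers on chromosome 12. The probe set may therefore read another copy rather than Mpc1 itself, which was not checked. The oxodicarboxylate carrier Slc25a21 was at -0.01 ± 0.05 (adjusted p = 0.910).

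The aspartate/glutamate carriers, the calcium-regulated step of the malate-aspartate shuttle, moved apart. Slc25a12 (aralar, the form of brain and muscle) had values of 0.23, 0.16 and 0.22 in differentiated arrays, against -0.18, -0.26 and -0.16 in undifferentiated arrays. It was 1.33-fold higher (0.41 ± 0.05, adjusted p = 3.24e-04). Slc25a13 (citrin, the form of liver) had values of -0.09, -0.11 and -0.12 in differentiated arrays, against 0.09, 0.18 and 0.15 in undifferentiated arrays. It was 1.19-fold lower (-0.25 ± 0.05, adjusted p = 0.00524). Neither gene's groups overlapped, and both calls held in each alternative fit that was run. The promoters of the pair are shown for the same reason as before, Slc25a12 at chr2:71367756-71368005 and Slc25a13 at chr6:6217174-6217423, both on the minus strand of GRCm38.p6.
Slc25a12: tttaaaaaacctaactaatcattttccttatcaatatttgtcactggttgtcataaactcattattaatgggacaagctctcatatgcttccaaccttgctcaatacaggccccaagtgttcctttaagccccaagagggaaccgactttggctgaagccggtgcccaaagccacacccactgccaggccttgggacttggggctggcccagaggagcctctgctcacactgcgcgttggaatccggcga
Slc25a13: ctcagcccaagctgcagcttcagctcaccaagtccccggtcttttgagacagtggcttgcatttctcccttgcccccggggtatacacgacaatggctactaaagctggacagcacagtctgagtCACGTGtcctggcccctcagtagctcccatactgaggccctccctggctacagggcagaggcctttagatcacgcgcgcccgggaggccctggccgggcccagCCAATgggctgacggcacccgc
None of the 8 motifs searched is in the Slc25a12 window. In that of Slc25a13 the capitals are an E-box 125 bases and a CCAAT box 22 bases before the start.

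Of the other amino acid carriers, Slc25a44, which carries branched-chain amino acids, rose 1.22-fold (0.29 ± 0.06, adjusted p = 0.00588). The glutamate carriers Slc25a18 and Slc25a22 did not pass. Slc25a18 was at 0.07, 0.12 and 0.02 in differentiated arrays, against -0.13, -0.14 and -0.02 in undifferentiated arrays (0.17 ± 0.06, adjusted p = 0.0578). Its groups did not overlap, and it passed without undifferentiated replicate 3 (adjusted p = 0.0279) and with array weights (0.0429). Slc25a22 was at -0.12, 0.02 and -0.10 in differentiated arrays, against 0.02, -0.02 and 0.06 in undifferentiated arrays (-0.09 ± 0.06, adjusted p = 0.314), and here the groups overlapped.

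The ornithine carrier Slc25a15 was at -0.01, 0.05 and -0.06 in differentiated arrays, against -0.05, 0.20 and 0.01 in undifferentiated arrays. Its close relative Slc25a2 was at -0.000703, 0.000703 and 0.0421 in differentiated arrays, against 0.01, -0.02 and -0.15 in undifferentiated arrays. Both overlapped between groups, with 95% intervals of -0.23 to 0.10 for Slc25a15 and -0.07 to 0.20 for Slc25a2. The basic amino acid carrier Slc25a29 was at 0.17, -0.02 and -0.09 in differentiated arrays, against -0.24, 0.04 and 0.02 in undifferentiated arrays, and had one of the widest intervals (-0.14 to 0.29). The glycine carrier Slc25a38, which feeds haem synthesis, was at -0.15 ± 0.06 and did not pass (adjusted p = 0.0854), except after cyclic loess scaling (0.0403).

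Slc25a20, the acylcarnitine carrier that admits long-chain fatty acids for oxidation, rose. Its values were 0.29, 0.17 and 0.21 in differentiated arrays, against -0.27, -0.19 and -0.17 in undifferentiated arrays. The groups did not overlap, and the gene was 1.35-fold higher (0.44 ± 0.06, adjusted p = 3.16e-04).

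The mitoferrins bring iron to the matrix for haem and iron-sulphur clusters. Slc25a37 (mitoferrin of erythroid and other cells) had the second largest rise of the family, with values of 0.49, 0.45 and 0.44 in differentiated arrays, against -0.44, -0.54 and -0.53 in undifferentiated arrays. It was 1.95-fold higher without overlap (0.96 ± 0.05, adjusted p = 1.44e-06). Its paralogue Slc25a28, which is broadly expressed, was at -0.01, -0.15 and -0.24 in differentiated arrays, against 0.03, 0.19 and 0.01 in undifferentiated arrays. All differentiated arrays were below all undifferentiated ones, but the change did not pass (-0.21 ± 0.08, adjusted p = 0.0646). It passed without differentiated replicate 1 (adjusted p = 0.0324), with array weights (0.0466) and after cyclic loess scaling (0.0380).

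Carriers of nucleotides and cofactors held 1 rise and 2 falls among 8 genes (37.5% called, near the 35.5% of all genes). Slc25a17, a peroxisomal carrier of coenzyme A and related cofactors, had values of -0.12, -0.44 and -0.40 in differentiated arrays, against 0.12, 0.20 and 0.16 in undifferentiated arrays. It fell 1.39-fold without overlap (-0.48 ± 0.09, adjusted p = 0.00202), and differentiated replicate 1 lay nearer 0 than the other two. Slc25a51, which carries NAD into mitochondria, was 1.14-fold lower (-0.19 ± 0.06, adjusted p = 0.0317). That call was lost without differentiated replicate 3 (adjusted p = 0.118) or without any 1 undifferentiated array (0.0621 to 0.0784).

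The pyrimidine nucleotide carriers showed small differences. Slc25a36 was at 0.09, 0.13 and 0.02 in differentiated arrays, against -0.09, -0.08 and -0.07 in undifferentiated arrays, a 1.12-fold rise (0.16 ± 0.05, adjusted p = 0.0457). Its probe sets disagreed, at 0.26 ± 0.07 and 0.06 ± 0.05, and the call was lost in the fit with the replicate number as a block (adjusted p = 0.0717), under each scaling alternative and without any 1 array but differentiated replicate 3 (0.0705 to 0.142). The probe set at 0.06 is numbered among those of carriers on chromosome 2, while Slc25a36 is on chromosome 9, so it may read another locus. Slc25a33 was at 0.04, 0.04 and 0.04 in differentiated arrays, against -0.06, -0.04 and -0.16 in undifferentiated arrays, and did not pass (0.12 ± 0.05, adjusted p = 0.114). Neither pair of groups overlapped. The coenzyme A carrier Slc25a42 was at 0.07, 0.04 and -0.08 in differentiated arrays, against 0.17, -0.10 and -0.04 in undifferentiated arrays. Its relative Slc25a16 was at 0.06, -0.02 and -0.09 in differentiated arrays, against 0.02, 0.12 and -0.12 in undifferentiated arrays. Both overlapped, with adjusted p-values of 0.995 for Slc25a42 and 0.842 for Slc25a16. Slc25a26, which carries S-adenosylmethionine (-0.05 ± 0.07, adjusted p = 0.610), and the folate carrier Slc25a32 (-0.03 ± 0.05, adjusted p = 0.756) did not pass either.

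The glutathione carriers were lower in value, and 1 of the 2 passed. Slc25a39 had values of -0.21, -0.23 and -0.27 in differentiated arrays, against 0.35, 0.21 and 0.39 in undifferentiated arrays. It fell 1.46-fold without overlap (-0.55 ± 0.06, adjusted p = 1.25e-04), the second largest fall of the family. Slc25a40, its paralogue, was at -0.24, 0.01 and -0.06 in differentiated arrays, against 0.14, 0.21 and -0.07 in undifferentiated arrays. Its groups overlapped and it did not pass (-0.19 ± 0.09, adjusted p = 0.140), except without undifferentiated replicate 3 (adjusted p = 0.0312).

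Members of the outer mitochondrial membrane included a further rise. Mtch1 had values of 0.37, 0.28 and 0.38 in differentiated arrays, against -0.43, -0.42 and -0.28 in undifferentiated arrays. It was 1.65-fold higher without overlap (0.72 ± 0.06, adjusted p = 2.31e-05). Mtch2, an insertase for outer membrane proteins, was at 0.07, 0.10 and 0.06 in differentiated arrays, against -0.09, -0.08 and -0.11 in undifferentiated arrays. Its 1.13-fold rise (0.17 ± 0.05, adjusted p = 0.0233) was lost when any 1 array was left out (adjusted p = 0.0519 to 0.0755), and only 1 of its pair of probe sets passed on its own. The probe set that did not pass is numbered apart from those of carriers on chromosome 2, where Mtch2 lies, and may read another locus. Slc25a46, which takes part in shaping mitochondria, was at -0.16 ± 0.07 (adjusted p = 0.122).

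Members not assigned a substrate here held 2 rises among 5 genes (40% called, near the 35.5% of all genes). Slc25a45 had values of 0.41, 0.23 and 0.41 in differentiated arrays, against -0.63, -0.63 and -0.23 in undifferentiated arrays. The groups did not overlap, undifferentiated replicate 3 lay nearer 0 than its other replicates, and the gene was 1.80-fold higher (0.85 ± 0.11, adjusted p = 2.98e-04). Slc25a43 rose 1.26-fold (0.33 ± 0.06, adjusted p = 0.00138). Slc25a47, Slc25a48 and Slc25a53 did not pass, with log2 fold changes from 0.02 to 0.10.

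Close relatives were then set side by side in 14 pairs, to ask whether they changed by different amounts. The largest gap was between Slc25a24 and Slc25a25, whose log2 fold changes differed by -1.30 ± 0.08 (first minus second, SE over arrays). Slc25a28 and Slc25a37 differed by -1.17 ± 0.10, Slc25a23 and Slc25a24 by 1.04 ± 0.10, and Slc25a14 and Slc25a30 by -0.94 ± 0.12. Slc25a12 and Slc25a13 differed by 0.65 ± 0.06. In 3 pairs, all among the aspartate/glutamate and ATP-Mg/phosphate carriers, both genes were called and in opposite directions. These were Slc25a12 with Slc25a13, Slc25a23 with Slc25a24, and Slc25a24 with Slc25a25, so the fall of Slc25a24 counts more than once. The share of opposite calls among pairs of genes at large was not computed, so nothing is read from this count. Smaller gaps separated Mtch1 from Mtch2 (0.55 ± 0.07), Slc25a10 from Slc25a11 (0.46 ± 0.08), Slc25a20 from Slc25a29 (0.36 ± 0.08), Slc25a4 from Slc25a5 (0.33 ± 0.08) and Slc25a18 from Slc25a22 (0.25 ± 0.04).

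For these 10 pairs the within-array difference did not overlap between groups, and the exact two-sided permutation test gave p = 0.10, the smallest that 3 arrays against 3 allow (0.14 after Benjamini-Hochberg over the 14 pairs). No pair could therefore pass 0.05. Single genes did not overlap in 46.2% of all cases, the share among pairs of genes at large was not computed, and the pairs were chosen with earlier results of these data known, so nothing is read from the count of 10. The other 4 pairs overlapped: Slc25a39 and Slc25a40 (-0.36 ± 0.16, exact p = 0.20), Slc25a15 and Slc25a2 (-0.13 ± 0.10, exact p = 0.30), Slc25a33 and Slc25a36 (-0.04 ± 0.05, exact p = 0.60), and Slc25a16 and Slc25a42 (-0.03 ± 0.12, exact p = 1). For Slc25a33 and Slc25a36 the sign turned, to 0.07, with the lowest-numbered probe set of each gene. For Slc25a36 that is the probe set that may read another locus.

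**Figure D3:**
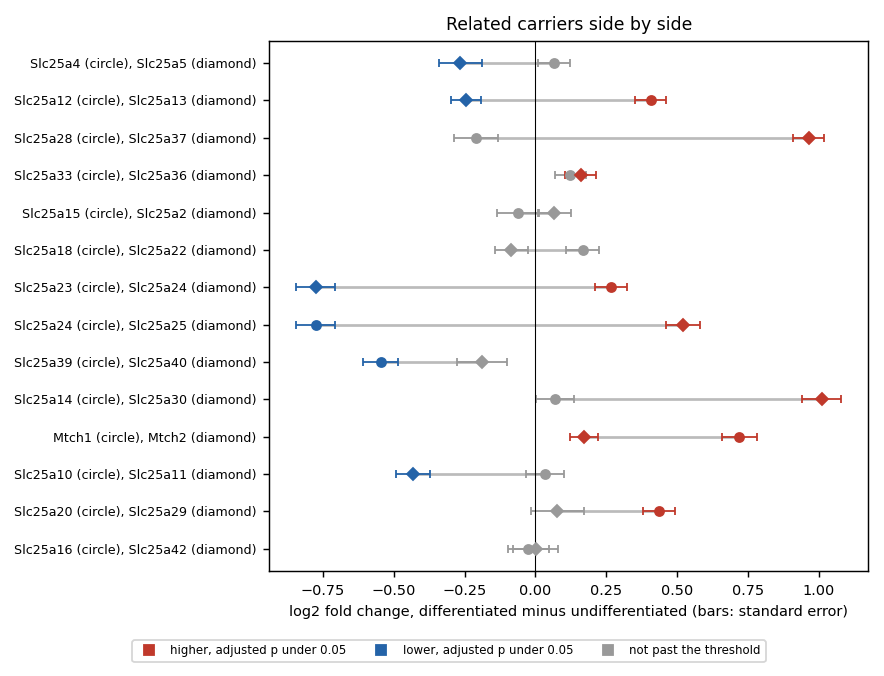
Log2 fold change, differentiated minus undifferentiated (horizontal axis), of both genes in each of 14 pairs of related carriers. The circle is the first named gene, the diamond the second, bars are standard errors and colours the call at an adjusted p of 0.05. The longest line joins Slc25a24 at -0.78 and Slc25a25 at 0.52, and the shortest joins Slc25a16 at -0.03 and Slc25a42 at 0.00.

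Some carrier genes lie next to each other in the genome. Slc25a43 and Slc25a5 are adjacent protein-coding genes on chromosome X in RefSeq, and Slc25a43 rose (0.33) while Slc25a5 fell (-0.27). Slc25a54 and Slc25a24 are adjacent on chromosome 3, at 0.02 for Slc25a54, which did not pass, and -0.78 for Slc25a24. On chromosome 17, Slc25a41 was at 0.01 and its neighbour Slc25a23 rose (0.27). On chromosome 12, Slc25a29 and Slc25a47 were at 0.08 and 0.05, and neither passed.

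RefSeq promoter windows were at hand for 41 of the 51 genes. The genes without one were Slc25a2, Slc25a26, Slc25a27, Slc25a32, Slc25a35, Slc25a37, Slc25a41, Slc25a44, Slc25a46 and Slc25a51. In the 250 bases before a start, on both strands, GC boxes (GGGCGG) were found for 28 of the 41 genes (68.3%, against 35.4% of all genes with a window). CCAAT boxes (CCAAT) were found for 19 (46.3%, against 37.5%), and the E-box of MYC and USF (CACGTG) for 7 (17.1%, against 6.86%). Of the 10 risen genes with a window, 8 held a GC box, as did 5 of the 6 fallen genes and 15 of the 25 that did not pass.

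The rarer motifs gave few matches. The glucocorticoid receptor half-site (AGAACA) was in the windows of 4 genes (9.76%, against 18.2% of all genes). They were the risen Slc25a43 and Slc25a45, the fallen Slc25a17, and Slc25a31. The core NRF1 motif (GCATGCGC) was found for 3 genes (7.32%, against 2.56%) and the cAMP response element (TGACGTCA) for Slc25a25 and Slc25a36 (4.88%, against 1.77%). The estrogen-related receptor element (TCAAGGTCA) and the CEBP-ATF element (TGATGCAA) were in none of the 41, and 0.422% and 0.918% of all genes hold them. The windows of carriers had a median of 58.4% G and C, against 52.4% over all windows, and these matches are letters in a window and not shown binding sites.

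The genes that make or use the carried substrates were counted in lists from textbook knowledge, and most of the lists had a median below 0. Over all genes, 16.4% were higher and 19.1% lower. ATP synthase, which uses the ADP and phosphate brought in by carriers, had 8 of 15 subunit genes lower and 0 higher (53.3% called, against 35.5% of all genes, median -0.35). The falls were led by Atp5d (-0.57 ± 0.06), Atp5o (-0.54 ± 0.07), Atp5pb (-0.50 ± 0.06) and Atp5b (-0.49 ± 0.05). Enzymes of the malate-aspartate shuttle, which relies on Slc25a11, Slc25a12 and Slc25a13, were counted with those of the glycerol phosphate shuttle. Of these 6 enzymes, 4 fell and 0 rose (66.7% called, median -0.35). The falls were in Gpd2 of the glycerol phosphate shuttle (-0.41 ± 0.07), and in Got2 (-0.40 ± 0.05), Mdh2 (-0.38 ± 0.06) and Got1 (-0.32 ± 0.06).

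Of 21 genes of the citrate cycle and of citrate export, 3 rose, 13 fell and 5 did not pass (76.2% called, against 35.5% of all genes, median -0.28). The falls included Me1, a cytosolic malic enzyme that makes NADPH (-1.22 ± 0.07), citrate synthase Cs (-0.60 ± 0.06), Dlst (-0.56 ± 0.07) and Suclg1 (-0.53 ± 0.07). Rises numbered 1 without differentiated replicate 1, undifferentiated replicate 1 or undifferentiated replicate 3. Around pyruvate, 3 of 16 genes rose and 8 fell (68.8% called, median -0.21). The pyruvate dehydrogenase kinases Pdk4 (0.69 ± 0.09) and Pdk2 (0.59 ± 0.09), which switch that enzyme off, rose. Pdk1 (-0.67 ± 0.11) and Pdk3 (-0.54 ± 0.10) of the same family fell. Of the pyruvate dehydrogenase phosphatases, which switch it on, Pdp1 rose (0.40 ± 0.06) and Pdp2 fell (-0.37 ± 0.09). The lactate and pyruvate transporter Slc16a1 fell too (-0.93 ± 0.16).

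Beside the rise of Slc25a20, genes of the carnitine shuttle and fatty acid oxidation had 2 rises and 8 falls among 18 (55.6% called, against 35.5% of all genes, median -0.11). Cpt2, the carnitine acyltransferase on the matrix side of the same carrier, fell (-0.47 ± 0.08), with Etfb (-0.56 ± 0.06), Echs1 (-0.49 ± 0.06) and Eci1 (-0.45 ± 0.06). The 2 rises were Crat, another carnitine acyltransferase (0.40 ± 0.06), and Acaa2 (0.28 ± 0.06). In glutamate, proline and ornithine metabolism, 2 of 9 genes rose and 5 fell (77.8% called, median -0.16), led by asparagine synthetase Asns (-2.19 ± 0.07), ornithine decarboxylase Odc1 (-1.21 ± 0.08), the transaminase Gpt2 (-1.06 ± 0.08) and Aldh18a1 of proline synthesis (-1.05 ± 0.05). Rises in that list numbered 1 without differentiated replicate 1 or 2 or undifferentiated replicate 1 or 2, and also with the replicate number as a block, array weights or median scaling.

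Beside the mitoferrins, 2 of 12 genes of haem and iron-sulphur synthesis rose and 3 fell (41.7% called, near the 35.5% of all genes, median 0.03). Alas1, which begins haem synthesis, rose (0.60 ± 0.07), and so did Iscu of iron-sulphur synthesis (0.54 ± 0.06). The later haem enzymes Cpox (-1.04 ± 0.07) and Alad (-0.69 ± 0.06) and the transferrin receptor Tfrc (-1.73 ± 0.09) fell. The other 7 genes did not pass, the later haem enzymes Uros, Urod, Ppox and Fech among them. Mitochondrial one-carbon metabolism, listed with the cytosolic enzyme Mthfd1, had 7 of 9 genes lower and 0 higher (77.8% called, against 35.5% of all genes, median -0.70). The falls were led by Aldh1l2 (-1.99 ± 0.07), Shmt2 (-1.99 ± 0.11), Mthfd2 (-1.44 ± 0.06) and Mthfd1 (-0.75 ± 0.08). The folate carrier Slc25a32 did not pass, as given above.

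Of 10 genes of mitochondrial nucleotides and DNA, 5 fell and 0 rose (50% called, against 35.5% of all genes, median -0.16). Leading falls were Pnpt1 (-0.86 ± 0.10), the transcription factor Tfam (-0.56 ± 0.11), Ssbp1 (-0.49 ± 0.07) and the helicase Twnk (-0.26 ± 0.07). Falls numbered 3 without differentiated replicate 3 or undifferentiated replicate 1, and Twnk was not past the threshold without these arrays (adjusted p = 0.0645 and 0.0585) or undifferentiated replicate 2 (0.0592). Cofactor synthesis had 1 of 12 genes higher and 3 lower (33.3% called, near the 35.5% of all genes, median -0.11). Nmnat3, which makes NAD, rose (0.40 ± 0.06), and the mitochondrial NAD kinase Nadk2 (-0.95 ± 0.06), Ppcdc (-0.39 ± 0.07) and Mat2b (-0.24 ± 0.06) fell. With the replicate number as a block 2 of these genes were higher.

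Calcium governs several of these carriers, and of 9 genes of mitochondrial calcium transport and outer membrane pores, 1 rose and 4 fell (55.6% called, against 35.5% of all genes, median -0.17). Slc8b1, the mitochondrial sodium/calcium exchanger, rose 2.37-fold (1.25 ± 0.06, adjusted p = 5.74e-07). The calcium uniporter pore Mcu (-0.63 ± 0.06) and the outer membrane channels Vdac3 (-0.59 ± 0.06) and Vdac1 (-0.55 ± 0.06) fell. Rises in this list numbered 2 without undifferentiated replicate 2 and with the replicate number as a block. Of 17 genes of the machinery that imports carriers and other precursors, 10 fell and 0 rose (58.8% called, median -0.25). Tomm70a, the receptor for carrier precursors, fell (-0.78 ± 0.08), as did Timm8a1 (-0.74 ± 0.09). So did Timm50 (-0.83 ± 0.09) and Timm23 (-0.70 ± 0.12), which belong to the TIM23 complex for other precursors. Timm22, the pore that inserts carriers, was at -0.13 ± 0.05 and did not pass (adjusted p = 0.106). It was 1 of 7 genes of the list that did not pass, with Timm9 (-0.20), Timm10 (0.24), Timm29 (0.16) and Agk (-0.13) among them. Without differentiated replicate 2 or undifferentiated replicate 2, 1 gene of this list was called higher.

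Among 14 regulators of mitochondrial genes, 3 rose and 6 fell (64.3% called, against 35.5% of all genes, median -0.06). Myc (0.72 ± 0.12) and Ppard (0.46 ± 0.07) led the rises, and Atf5 (-1.20 ± 0.05) and Gabpb1, a subunit of nuclear respiratory factor 2 (-1.13 ± 0.07), led the falls. Medians were below 0 in 12 of these 13 lists and at 0.02 for the carriers, but this difference was not tested.

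**Figure D4:**
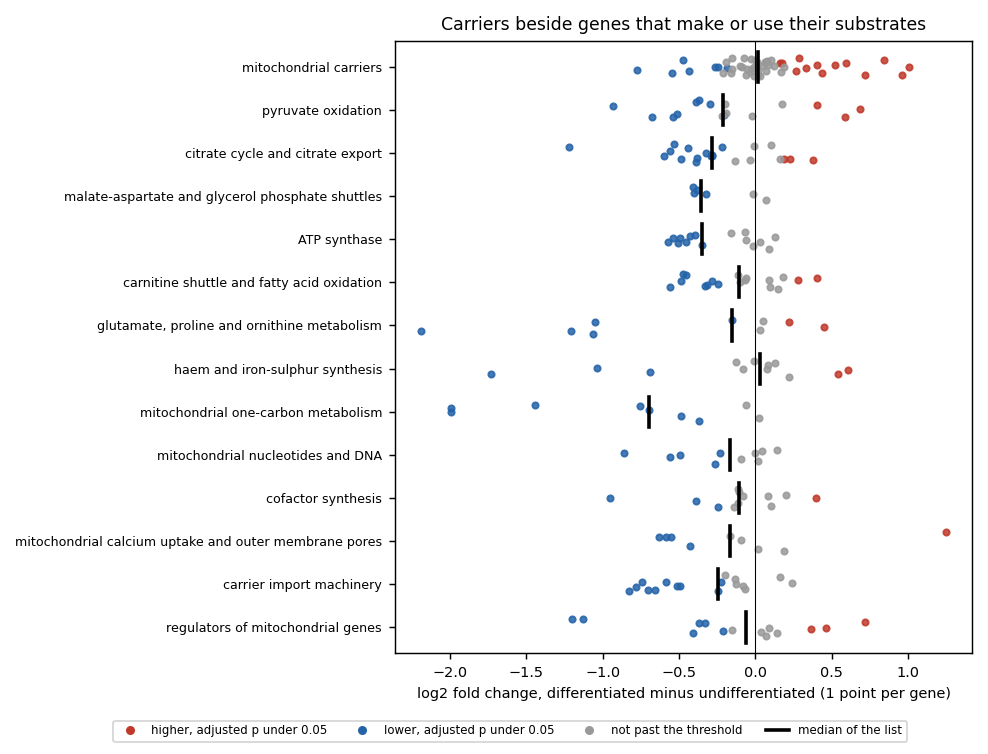
Log2 fold change, differentiated minus undifferentiated (horizontal axis), of each carrier gene (top row) and each gene of 13 lists. Points are genes coloured by the call at an adjusted p of 0.05, spread vertically for visibility, and black bars mark list medians. The carriers spread from -0.78 to 1.01 around a median of 0.02, while one-carbon metabolism has the lowest median at -0.70.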

How the data were processed

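Each of the 6 samples was read on 1 array, and its title gave its group and number. The log2 values are as the authors deposited them. They were made with RMA, per the submitters' processing notes, with no version, and the genome build behind the array is unknown here. The centring (median 0 per probe set, to within 5e-07) is seen only in the values. It leaves differences intact but removes levels, so dim probe sets could not be filtered. Precision is limited by how few arrays there are.

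Gene names are those of the platform annotation, updated through RefSeq gene IDs (GRCm38.p6). All 56 carrier probe sets matched. Of 28856 probe sets, the 21789 that name a single gene were used, and 1621 with several genes and 5446 without one were left out. Probe sets of a gene were averaged (4 carriers, 999 genes in all). Differentiated minus undifferentiated was fitted with limma 3.58.1 (lmFit, eBayes, two-sided) in R 4.3.3, with Benjamini-Hochberg adjustment over 19938 genes. Errors are moderated standard errors, and the fit was tested on simulated data.

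The members, lists and pairs were chosen with earlier results of these data known. Full values are given for the 12 carriers with the largest called changes, all genes of the pairs, and Mpc1, Mtch1 and Mtch2. Ucp1 and the other genes given array by array beyond these, and list genes beyond the 4 largest called changes, were added afterwards. Pairs with Mpc2 or Ucp2 were not analysed here. Promoters are from RefSeq. Alternatives were the replicate block, 3 scalings, other probe set rules, array weights, robust eBayes and each array left out.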

Additional observations from a re-analysis of the deposited data

How the results depend on the processing

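Of the 20 carriers past the threshold, 16 (11 higher, 5 lower) kept their call in all 13 alternative fits. The other 4 (Mtch2, Slc25a36, Slc25a5 and Slc25a51) lost it in at least 1, and 6 carriers that had not passed did so in at least 1. No called carrier changed sign in any of these fits. Counts were 11 to 15 higher and 5 to 10 lower over the alternatives, and 11 to 13 higher and 5 to 7 lower when each array was left out. The carriers' median of 0.0162 ranged from 0.0016 to 0.031 over the fits without 1 array. Genes of mitochondrial nucleotides and DNA past the threshold numbered 3 to 5 in these fits, against 5 with every array.

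Same-numbered arrays of the groups were not paired in the main fit. Correlations of their deviations from the group means were -0.00133, 0.0692 and 0.162, against -0.183 to 0.135 for arrays of unlike number. Deviations within a group of 3 arrays sum to 0, so these values cannot settle whether the arrays were paired. With the replicate number as a block 13 carriers were higher and 7 lower, as without it, although Slc25a36 lost its call and Slc25a34 gained one. The scalings act on centred values, which are not their usual input, and moved the median over all genes from 0.0206 to between 0.0149 and 0.016. Signal over background is unknown, so a carrier that did not pass may not have been expressed.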
